A study of Mus musculus with 6 samples.

Results

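DPPA4 occupancy was described around 10 genes that mark the exit from naive pluripotency: the formative genes *Otx2*, *Fgf5*, *Pou3f1*, *Lef1* and *Zic2*, and the primitive streak genes *T*, *Eomes*, *Mixl1*, *Gsc* and *Nodal*. They are 10 of the 21938 protein-coding genes of GENCODE vM21 and were taken by name. All DPPA4 peaks within 50 kb of each gene body (mm10) were taken, and peaks of both lists linked by at least 1 shared bp were merged, which gave 118 of the 99695 regions on the mouse chromosomes. Expression of the genes was not measured here.

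Mouse embryonic stem cells (ESCs) from a BL6/129 hybrid were used. They carried EHMT2, an H3K9 dimethyltransferase, fused to a dTAG degron and HA tags, an mCherry reporter of *Ehmt2* transcription, and a GFP reporter under the promoter of the retroviral element MERVL. Cells were grown in FBS/LIF medium, treated with dTAG over 72 h, and live-sorted into GFP-negative cells (ESCs) and GFP-positive cells, which stand for 2-cell-like cells. Both groups were therefore EHMT2-depleted, and no group with intact EHMT2 was among the 6 samples. The line came from picked clones, and GFP reports MERVL activity rather than cell identity. CUT&RUN, in which an antibody tethers a nuclease to chromatin, was performed against DPPA4 in 2 libraries of each group; 1 IgG library of GFP-negative cells and 1 of unsorted cells were not used here. The authors deposited 1 peak list for each group, pooled over its 2 libraries. No spread between replicates exists for any value below, so differences between the lists are described and not tested. The GFP-negative list held 83602 peaks on the mouse chromosomes and the GFP-positive list 54642, and the reads kept behind each list are unknown, so a difference in occupancy and a difference in depth cannot be told apart.

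DPPA4 is a DNA-binding protein with a SAP domain that acts together with DPPA2. The pair is known for holding CpG-rich promoters of developmental genes in a state that can later be activated, and for switching on genes of the 2-cell embryo. Formative genes come up when naive cells are released toward the epiblast. Streak genes such as *T* come up at gastrulation, when Nodal, Wnt and Fgf signals act on the epiblast.

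To show the DNA behind the results, 5 distal summits are given as 101 bases centred on the summit, from the plus strand of GRCm38.p6 (RefSeq), which carries the mm10 sequence. Capitals mark CpG dinucleotides. The first 3 are the strongest GFP-negative-specific regions of *Otx2*, *Gsc* and *Lef1*, and the last 2 are distal regions found in both lists near *Lef1* and *Pou3f1*. Their positions are chr14:48701189-48701289, chr12:104433327-104433427, chr3:131102478-131102578, chr3:131179111-131179211 and chr4:124672654-124672754.
Otx2 upstream, GFP-negative-specific: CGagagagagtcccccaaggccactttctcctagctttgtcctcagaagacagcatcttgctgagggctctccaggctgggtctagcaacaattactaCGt
Gsc downstream, GFP-negative-specific: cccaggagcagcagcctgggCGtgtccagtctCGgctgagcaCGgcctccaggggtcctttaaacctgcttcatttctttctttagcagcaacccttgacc
Lef1 upstream, GFP-negative-specific: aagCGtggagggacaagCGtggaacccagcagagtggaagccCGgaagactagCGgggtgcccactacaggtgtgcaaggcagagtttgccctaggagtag
Lef1 intron, common: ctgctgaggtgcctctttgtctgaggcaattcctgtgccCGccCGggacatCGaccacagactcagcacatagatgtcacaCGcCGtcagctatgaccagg
Pou3f1 downstream, common: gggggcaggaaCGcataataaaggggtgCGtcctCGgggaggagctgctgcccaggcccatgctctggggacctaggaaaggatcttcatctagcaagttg

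The GFP-negative-specific summits held 2, 3 and 4 CpGs and the common ones 5 and 3. The median 31-mer around each of the 5 summits occurs 1 time in the genome, although part of the *Lef1* upstream window is repeated, with a 31-mer that occurs 678 times.

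The 250 bases before the RefSeq start site are given for 4 promoters, on the plus strand. *T* and *Fgf5* are shown because their promoters held a peak in the GFP-negative list only, and *Nodal* and *Eomes* because peaks of both lists lay over theirs. They are examples from those whose window reaches no UTR. The windows are chr17:8434173-8434422, chr5:98253934-98254183, chr10:61417722-61417971 and chr9:118477939-118478188, with CpGs in capitals.
T promoter: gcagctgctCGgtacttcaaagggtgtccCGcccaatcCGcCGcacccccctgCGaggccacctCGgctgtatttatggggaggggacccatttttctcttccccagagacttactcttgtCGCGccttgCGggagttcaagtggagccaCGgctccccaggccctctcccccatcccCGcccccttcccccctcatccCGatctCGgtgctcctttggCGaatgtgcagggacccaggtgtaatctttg
Fgf5 promoter: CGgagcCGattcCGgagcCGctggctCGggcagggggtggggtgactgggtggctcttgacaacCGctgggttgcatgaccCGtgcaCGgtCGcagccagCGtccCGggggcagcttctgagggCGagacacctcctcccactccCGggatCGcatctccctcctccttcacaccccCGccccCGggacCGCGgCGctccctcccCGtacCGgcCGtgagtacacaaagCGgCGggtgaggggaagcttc
Nodal promoter: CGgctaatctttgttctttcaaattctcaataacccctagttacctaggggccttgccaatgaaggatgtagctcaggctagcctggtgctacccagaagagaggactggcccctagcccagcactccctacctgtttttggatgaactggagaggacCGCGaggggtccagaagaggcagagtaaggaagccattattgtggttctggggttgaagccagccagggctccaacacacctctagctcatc
Eomes promoter: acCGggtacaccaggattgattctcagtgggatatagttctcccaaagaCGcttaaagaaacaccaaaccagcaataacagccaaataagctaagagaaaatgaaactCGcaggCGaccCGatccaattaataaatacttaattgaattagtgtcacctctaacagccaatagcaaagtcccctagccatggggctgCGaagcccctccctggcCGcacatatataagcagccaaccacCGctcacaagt

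The *T* window held 14 CpGs and the *Fgf5* window 24, against 3 for *Nodal* and 8 for *Eomes*. The median over 32851 RefSeq promoter windows of this length was 6. CpG number did not split the genes by list. The *Gsc* window held 22, and the *Gsc* promoter was called occupied in both lists. Its GFP-positive peak did not reach that window, however. The 4 *Otx2* windows held 6, 8, 9 and 14 and the 4 *Lef1* windows 5, 6, 11 and 14. The *Nodal* and *Eomes* summits also lay outside the windows shown, 1811 bp upstream for *Nodal* and up to 593 bp downstream for *Eomes*. Of 7 short motifs searched on both strands, the GC box GGGGCGGGG was in the *T*, *Fgf5* and *Gsc* windows and in 3 of the 4 *Lef1* windows, and in none for *Otx2*, *Nodal* and *Eomes*; it was in 10.4% of RefSeq windows. The motif TAATCC was in 1 *Otx2* window, beside 6.25%, and the other motifs were in none. RefSeq entries were found for 7 of the 10 genes. *Pou3f1*, *Zic2* and *Mixl1* had no entry.

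Around the 10 genes DPPA4 peaks were mostly found in GFP-negative cells alone. The GFP-negative list held 114 peaks within 50 kb and the GFP-positive list 38, a ratio of 3.0 against 1.53 for the whole lists. Of the 118 regions, 84 were GFP-negative-specific (71.2%, Wilson 95% interval 62.4 to 78.6), beside 46.7% of all regions and 47.7% of regions within 50 kb of any protein-coding gene. Common regions numbered 29 (24.6%, 17.7 to 33.1), beside 35.0% of all regions. GFP-positive-specific regions numbered 5 (4.24%, 1.82 to 9.54), beside 18.4%. The intervals reflect counting error alone, and regions side by side are counted as if independent.

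The density of GFP-positive peaks was near that around all protein-coding genes, and the density of GFP-negative peaks was higher. The high GFP-negative density was not particular to the 10 genes, as the related gene lists below show. Median GFP-negative-specific regions per gene were 8, against 3 over all protein-coding genes. Median common regions were 2 against 3, and median GFP-positive peaks 3 against 4. Per 100 kb of window, which takes out gene length, the median GFP-positive peak density was 2.83 against 2.96 for all genes, whereas the GFP-negative density was 9.57 against 4.65. Seen from the other list, 33 of the 38 GFP-positive peaks (86.8%, 72.7 to 94.2) lay in common regions, beside 66.5% of all GFP-positive peaks.

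The formative and the streak genes gave much the same split. The 5 formative genes had 64 regions, of which 46 (71.9%, 59.9 to 81.4) were GFP-negative-specific. The 5 streak genes had 54, of which 38 (70.4%, 57.2 to 80.9) were. GFP-negative-specific regions outnumbered the other classes together in 8 of the 10 genes, beside 31.6% of protein-coding genes with any region. The exceptions were *Fgf5* and *Mixl1*, with 2 and 5 regions in all. With lists of equal length this held for 5 of the 10 genes, beside 13.8%.

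**Figure D1:**
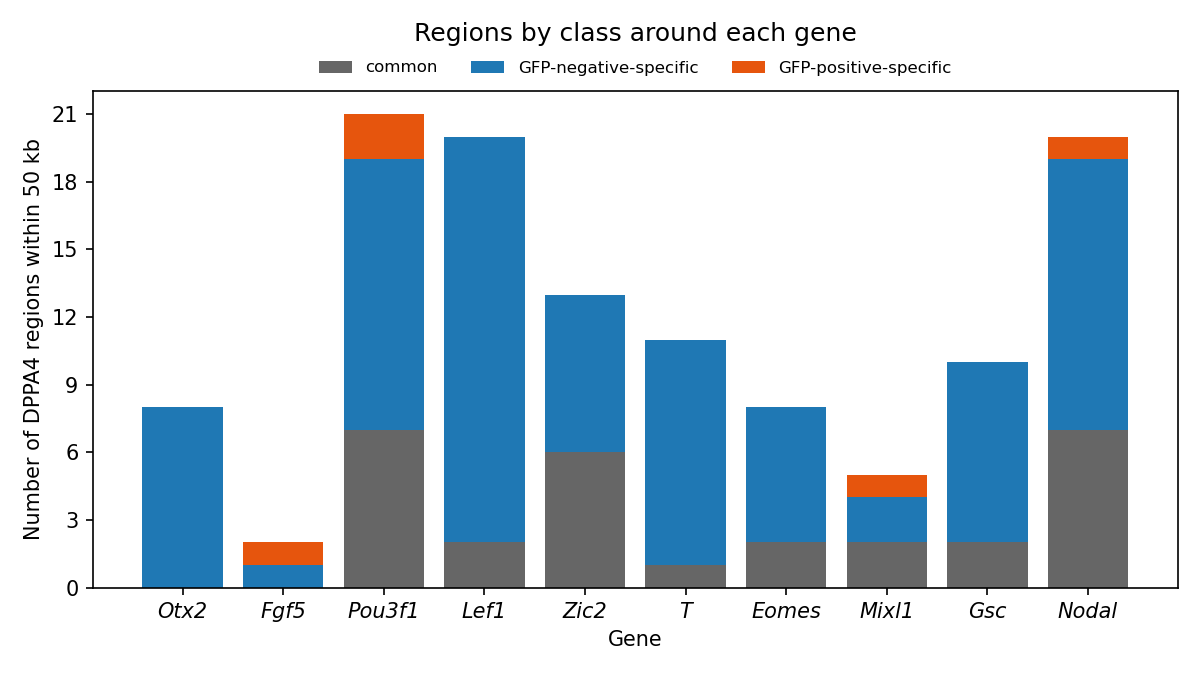
Number of DPPA4 regions within 50 kb of each gene (y axis), stacked by class; each bar is 1 gene and has no replicate error. GFP-negative-specific regions (blue) fill the whole *Otx2* bar, 18 of 20 regions at *Lef1* and 10 of 11 at *T*, whereas *Pou3f1*, *Zic2* and *Nodal* carry 6 or 7 common regions each.

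**Figure D2:**
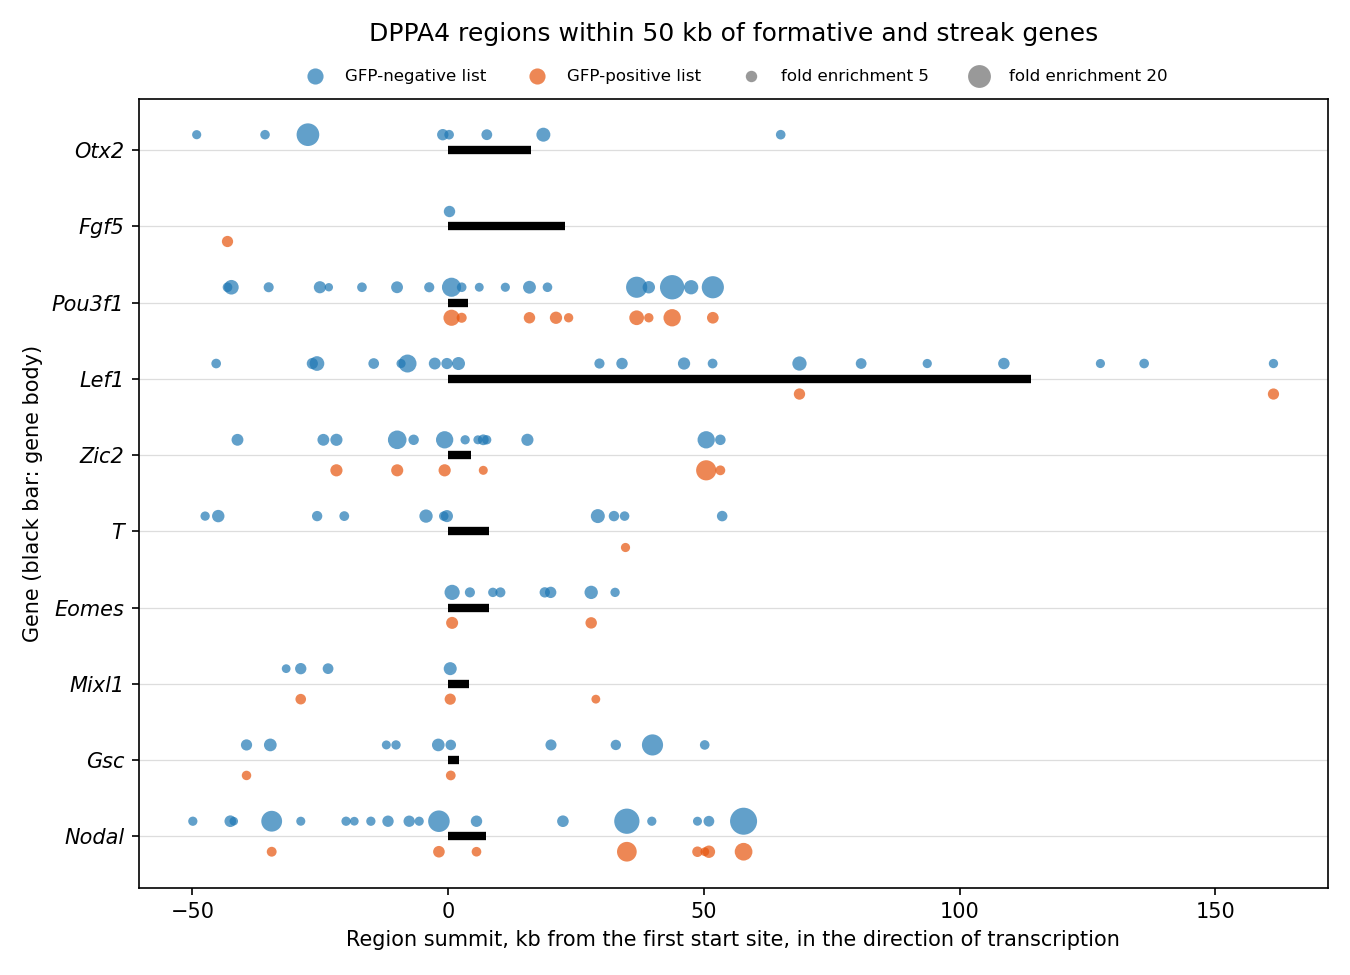
Position of every region as the distance of its summit from the first start site of the gene (x axis, kb, positive in the direction of transcription), with the GFP-negative list drawn above each gene and the GFP-positive list below; dot area follows fold enrichment, which is compared within a list only. The 114 GFP-negative and 38 GFP-positive peaks are drawn as 1 dot per region and list, and no orange dot lies at *Otx2*.

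Among the formative genes, *Otx2* (chr14:48657677-48673819, minus strand) had the most one-sided pattern. *Otx2* encodes a homeodomain factor that directs enhancer use in formative cells. Its window held 8 GFP-negative peaks and 0 GFP-positive peaks, and the nearest GFP-positive peak lay 163 kb from the gene body. Of 10019 protein-coding genes with at least 8 GFP-negative peaks, 42 (0.419%) had no GFP-positive peak within 50 kb; the limit of 8 was taken from *Otx2* itself after its values were seen. The strongest region lay 27.4 kb upstream (chr14:48700809-48701597), in an intron of the antisense gene *Otx2os1*, with a fold enrichment of 19.7 (signal over local background) and a −log10 q of 48.7. Here −log10 q measures how significant a summit was in the authors' peak calling, after adjustment. That region ranked 22nd by −log10 q among the 46538 GFP-negative-specific regions of the genome. A second region lay 18.6 kb past the first start site, downstream of the gene (chr14:48653697-48655758), with a fold enrichment of 7.51. The 3 regions in *Otx2* promoters were weaker, with fold enrichments of 3.55, 4.49 and 4.98.

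*Lef1* (chr3:131110471-131224356, plus strand), a TCF/LEF factor that carries Wnt signals to DNA, had 20 GFP-negative peaks and 2 GFP-positive peaks. Its 18 GFP-negative-specific regions were the most of any of the 10 genes, and its window of 214 kb was also the widest. The strongest lay 7.94 kb upstream (chr3:131102245-131102867), with a fold enrichment of 12.4 and a −log10 q of 25.0. Another lay 25.7 kb upstream (chr3:131084257-131085514), with a fold enrichment of 8.30. Both promoter peaks belonged to the GFP-negative list, with fold enrichments of 4.83 and 6.52. The GFP-positive list reached *Lef1* only in an intron 68.7 kb into the gene (chr3:131178462-131179737) and at the promoter of the neighbour *Hadh*. The intron region had a fold enrichment of 4.93 in the GFP-positive list and 7.83 in the GFP-negative list, each on its own scale.

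*Fgf5* (chr5:98254184-98277030, plus strand), a growth factor gene used as the classical marker of the epiblast, was the sparsest. It held 1 peak in each list, at different places. The GFP-negative peak lay over the promoter (chr5:98254017-98254522) with its summit 75 bp before the nearest start site, a fold enrichment of 4.98 and a −log10 q of 4.57. The GFP-positive peak lay 43.3 kb upstream (chr5:98210423-98211006), with a fold enrichment of 4.86 and a −log10 q of 4.30. It lay in sequence that was fully soft-masked, and the median 31-mer around its summit occurs 315.5 times in the genome. Reads with many matches were placed at 1 copy at random, so this peak does not show which copy was occupied.

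*Pou3f1* and *Zic2* carried more regions of both lists. *Pou3f1* (chr4:124656807-124660655, plus strand), which encodes the POU factor OCT6, had 20 GFP-negative and 9 GFP-positive peaks. Of its 21 regions 7 were common, 12 were GFP-negative-specific and 2 GFP-positive-specific. A strong common region lay over its start (chr4:124656468-124659128), with fold enrichments of 14.0 (GFP-negative list) and 10.03 (GFP-positive list). The strongest common region, at 22.8 and 11.5, lay at the promoter of the neighbour *Fhl3* (chr4:124700219-124701818). The strongest GFP-negative-specific region lay 42.4 kb upstream (chr4:124614243-124614526), in an intron of *Gm2164*, at 8.20. The stronger GFP-positive-specific region lay 21.1 kb downstream of the start site (chr4:124677427-124678067), at 5.82, which was the highest of the 5 GFP-positive-specific regions.

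*Zic2* (chr14:122475435-122479852, plus strand), a zinc finger factor, had 13 GFP-negative and 9 GFP-positive peaks in 6 common and 7 GFP-negative-specific regions. Its promoter region (chr14:122473277-122476834) had fold enrichments of 11.5 (GFP-negative list) and 5.73 (GFP-positive list). The strongest GFP-negative-specific region (fold enrichment 5.68) lay 15.5 kb downstream of the start, at the promoter of *Gm10837* (chr14:122490521-122490975). A common region 50.5 kb downstream of the start (chr14:122524918-122526841) held the strongest GFP-positive peak around the 10 genes, at 15.6. Its fold enrichment in the GFP-negative list was 11.5, and the 2 values are not on a shared scale. Its median 31-mer copy number was 816.5, so here too the occupied copy is not known. The other 116 regions had a median copy number of 1.

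Among the streak genes, *T* (chr17:8434423-8442496, plus strand) most resembled *Otx2* and *Lef1*. *T* encodes Brachyury, the T-box factor that defines the streak. It had 11 GFP-negative peaks and 1 GFP-positive peak. Its promoter held 2 GFP-negative peaks, with summits 240 and 861 bp before the nearest start site and fold enrichments of 5.61 and 3.46. The strongest GFP-negative-specific region lay 29.3 kb downstream of the start (chr17:8463608-8464151), at 7.53, and another 4.33 kb upstream, at 6.80. The single common region, 34.5 kb downstream of the start (chr17:8468791-8469418), was weak in both lists, at 3.51 and 3.25.

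*Gsc* (chr12:104471209-104473330, minus strand), a homeobox gene of the anterior streak and organizer, had 10 GFP-negative and 3 GFP-positive peaks in 2 common and 8 GFP-negative-specific regions. Its strongest region was GFP-negative-specific and lay 39.95 kb downstream of the start (chr12:104432928-104433810), with a fold enrichment of 17.2 and a −log10 q of 37.7. It ranked 69th by −log10 q among all GFP-negative-specific regions, and the nearest GFP-positive peak lay 13.5 kb away. The region over the start site (chr12:104471677-104473755) was common, at 4.30 (GFP-negative list) and 3.66 (GFP-positive list). The latter value is that of the stronger of its 2 GFP-positive peaks. The GFP-positive peak with its summit in the promoter, 272 bp past the start site, had 3.50 and a −log10 q of only 1.69. A further promoter region 1.93 kb upstream (chr12:104474130-104476364) was GFP-negative-specific, at 6.16.

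*Eomes* (chr9:118478212-118486132, plus strand), a T-box gene of the streak and definitive endoderm, had 8 GFP-negative and 3 GFP-positive peaks. Its promoter region (chr9:118477511-118480054) was common, at 8.86 and 5.54, and was the strongest at this gene in both lists. The 6 GFP-negative-specific regions were weaker, and the strongest by −log10 q (fold enrichment 3.87) lay in an intron of *Gm33460* (chr9:118488120-118489252). *Mixl1* (chr1:180693043-180697034, minus strand), a homeobox gene of mesendoderm, had 4 GFP-negative and 3 GFP-positive peaks. Its promoter region (chr1:180695837-180697645) was common, at 6.51 and 4.83. Its other common region lay at the promoter of *Acbd3* (chr1:180725544-180726556), at 4.94 and 4.32. The 2 GFP-negative-specific regions had fold enrichments of 4.43 (chr1:180719791-180720662) and 2.95, and the GFP-positive-specific region, in an intron of *Lin9* (chr1:180667879-180668217), had 3.002.

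*Nodal* (chr10:61417972-61425338, plus strand), the TGF-beta family ligand that induces the streak, had 19 GFP-negative and 7 GFP-positive peaks. Of its 20 regions 7 were common, 12 were GFP-negative-specific and 1 GFP-positive-specific. The promoter region (chr10:61415216-61419703) was common, with its summit 1.81 kb upstream. Its fold enrichment was 17.8 in the GFP-negative list, at percentile 97.3 of −log10 q in that list, and 5.18 in the GFP-positive list, at percentile 65.8. A second common region lay in a *Nodal* exon, at 5.01 and 3.60. The 2 common regions with the highest GFP-negative fold enrichment of all 10 genes lay at promoters of neighbours, *Lrrc20* (chr10:61475138-61476947, 28.1 and 12.04) and *Eif4ebp2* (24.5 and 14.9). The GFP-negative-specific regions were weaker, and the strongest by −log10 q (chr10:61409258-61410458) had a fold enrichment of 4.95. The GFP-positive-specific region (chr10:61468074-61468222) had 2.95.

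Promoter occupancy was compared gene by gene. A promoter was called occupied when a peak summit fell between 2.5 kb before and 0.5 kb after a start site of the gene. By this rule the GFP-negative list occupied 8 of the 10 promoters, beside 67.8% of all protein-coding genes, and the GFP-positive list 5, beside 59.3%. *Zic2*, *Mixl1*, *Gsc* and *Nodal* were occupied in both lists, 4 of 10 genes, beside 57.0% of all protein-coding genes. *Otx2*, *Fgf5*, *Lef1* and *T* were occupied in the GFP-negative list only, 4 of 10, beside 10.8%. *Eomes* was occupied in the GFP-positive list only (2.32% of all genes) and *Pou3f1* in neither (29.9%). These last calls rested on the window. The GFP-negative summit of *Eomes* lay 593 bp and both *Pou3f1* summits 652 and 661 bp past the start site, just outside. When any overlap of a peak with the window counted, *Eomes* and *Pou3f1* joined those occupied in both lists, 6 of 10 beside 59.9% of all genes. *Otx2*, *Fgf5*, *Lef1* and *T* stayed in the GFP-negative list only (10.1% of all genes). The call at *Nodal* rested on the window too. With summits within 1 kb of a start site, *Nodal* was occupied in neither list, as were 30.3% of all genes, since its summits lay 1811 and 1802 bp upstream.

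The 4 promoters found in the GFP-negative list only carried modest peaks. Their fold enrichments ran from 3.46 (*T*) to 6.52 (*Lef1*) and their −log10 q from 1.75 to 7.89. In the common regions at promoters with peaks of both lists, the GFP-negative fold enrichment ran from 4.30 at *Gsc* to 17.8 at *Nodal*. The *Gsc* value thus lay within the range of the promoters found in the GFP-negative list only. When only peaks with a −log10 q of 5 or more were kept in both lists, *Lef1* and *T* were still occupied in the GFP-negative list only and *Gsc* became so, 3 of 10 beside 14.9% of all protein-coding genes. *Otx2*, *Fgf5* and *Pou3f1* were then occupied in neither, 3 of 10 beside 42.1%. With the 10000 strongest peaks of each list, *Zic2* and *Nodal* were occupied in the GFP-negative list only, 2 of 10 beside 6.42%, and 0 in both lists, beside 20.6%. A weak peak missing from the shorter list and a lack of occupancy cannot be told apart at these promoters.

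Distal sites were where the lists parted most. Of the 84 distal regions, those with a summit in no promoter window, 68 were GFP-negative-specific (80.95%, 71.3 to 87.9) beside 54.5% of distal regions around any protein-coding gene. Common distal regions numbered 11 (13.1%, 7.47 to 21.9) beside 25.2%, and all 5 GFP-positive-specific regions were distal (5.95%, 2.57 to 13.2) beside 20.2%. Of the 34 promoter regions, 18 were common (52.9%, 36.7 to 68.5) beside 56.1%, and 16 GFP-negative-specific (47.1%, 31.5 to 63.3) beside 32.9%. None was GFP-positive-specific, beside 11.0%. Over all these promoter regions the common share was thus near that around any protein-coding gene, but they included promoters of neighbours. Of the 15 that touched the own promoter of a gene, 6 were common, and of the 18 at other genes 11 were. The remaining 1, in its own gene but outside that promoter, was common as well. At distal sites the common share was lower than around any protein-coding gene, with an interval that ended below that share.

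Of the 29 common regions 18 lay at promoters (62.1%, 44.0 to 77.3), beside 50.6% of common regions around any protein-coding gene, and 11 of these 18 lay at other genes. Of the 17 regions that touched the own promoter of a gene, wherever their summit lay, 6 were common and 11 GFP-negative-specific. The 6 were at *Pou3f1*, *Zic2*, *Eomes*, *Mixl1*, *Gsc* and *Nodal*. Of the 18 promoter regions at other genes, 11 were common and 7 GFP-negative-specific. The neighbours with common regions included *Utp11* and *Fhl3* at *Pou3f1*, *Zic5* at *Zic2*, *Golga4* at *Eomes*, *Acbd3* at *Mixl1*, and *Pald1*, *Eif4ebp2* and *Lrrc20* at *Nodal*. Among the 84 GFP-negative-specific regions, 36 were intergenic, 30 intronic, 2 in exons and 16 at promoters (19.0%, 12.1 to 28.7), beside 21.8%.

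Strong peaks are more often found in both lists, so the comparison was repeated by strength. Of the 114 GFP-negative peaks, 30 had their region in common with the other list (26.3%, 19.1 to 35.1), beside 44.3% over the whole list. At a −log10 q of at least 10 these were 14 of 23 (60.9%, 40.8 to 77.8), beside 84.3%. At promoters of any strength it was 18 of 34 (52.9%), beside 63.9%, and at distal sites 12 of 80 (15.0%, 8.79 to 24.4), beside 35.5%. At promoters, 10 of 10 such strong peaks lay in common regions (interval from 72.2), beside 93.2%. At distal sites 4 of 13 did (30.8%, 12.7 to 57.6), beside 75.0%. Of the strong promoter peaks, those at *Zic2*, at *Nodal* and over the *Pou3f1* start touched the own promoter, and all others lay at promoters of neighbouring genes. The limit of 10 was chosen after the data were seen. The 9 strong distal regions without a GFP-positive peak lay at *Otx2*, *Lef1*, *Pou3f1* and *T* (2 each) and at *Gsc* (1). Peaks were placed here by their own summit, whereas regions were placed by the midpoint of both lists. The 4 strong distal peaks in common regions lay 593 bp past the *Eomes* start, in a region that itself counts as promoter, and at the *Lef1* intron, the multi-copy region near *Zic2* and an exon of *Fhl3*.

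**Figure D3:**
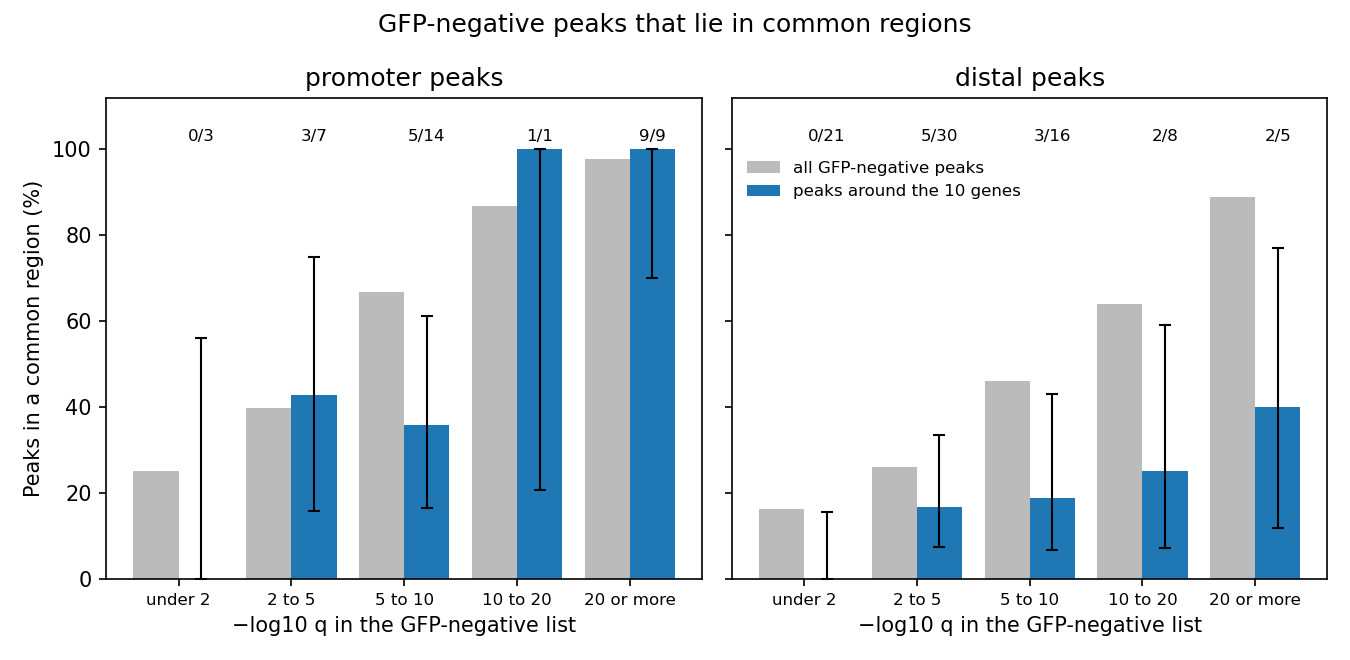
Share of GFP-negative peaks whose region was common (y axis, percent) by their −log10 q (x axis), for peaks around the 10 genes (blue, with Wilson 95% intervals and counts above the bars) and for all GFP-negative peaks (grey), at promoters (left) and distal sites (right). At distal sites the blue bars reach 2 of 5 at a −log10 q of 20 or more, where 89.0% of all distal peaks lay in common regions.

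At promoters the share with a −log10 q under 2 was 0 of 3 beside 25.0%, from 2 to 5 it was 3 of 7 (42.9%) beside 39.8%, and from 5 to 10 it was 5 of 14 (35.7%, 16.3 to 61.2) beside 66.7%. From 10 to 20 it was 1 of 1 beside 86.9%, and at 20 or more 9 of 9 beside 97.7%. In the class from 5 to 10 the interval ended below the share of all promoter peaks; in the others it did not.

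At distal sites the share was lower than that of all peaks in every class of strength. In distal peaks with a −log10 q under 2, 0 of 21 lay in common regions, which leaves up to 15.5% by the Wilson interval, beside 16.1% of all such peaks. From 2 to 5 it was 5 of 30 (16.7%) beside 26.0%, from 5 to 10 it was 3 of 16 (18.8%) beside 46.1%, and from 10 to 20 it was 2 of 8 (25.0%) beside 64.1%. At 20 or more it was 2 of 5 (40.0%, 11.8 to 76.9) beside 89.0%. In each class except that from 2 to 5, the interval for the 10 genes ended below the share of all distal peaks.

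Common regions held the stronger peaks here as elsewhere. In the GFP-negative list their median fold enrichment was 6.51 (quartiles 4.46 and 14.0) against 4.11 for GFP-negative-specific regions (3.35 and 5.28). Over all regions these medians were 6.48 and 3.69. In the GFP-positive list the common regions had a median of 5.04, beside 4.97 over all common regions, and the 5 GFP-positive-specific regions a median of 3.34.

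Fold enrichment cannot be set side by side between lists, so common regions were placed by their percentile of −log10 q within each list. The GFP-negative percentile was the higher one in 23 of 29 common regions (79.3%), beside 66.7% of all common regions, with a median difference of 12.3 percentile points against 5.30. At the *Nodal* promoter the percentiles were 97.3 and 65.8. The gap was wider at the promoters of *Pald1* (95.99 and 32.7) and *Utp11* (64.3 and 17.5). The 6 regions higher in the GFP-positive list lay at *Pou3f1*, at *Hadh*, at *Gm5089*, at the multi-copy region near *Zic2*, and at 2 intergenic sites about 50 kb downstream of the *Nodal* start.

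**Figure D4:**
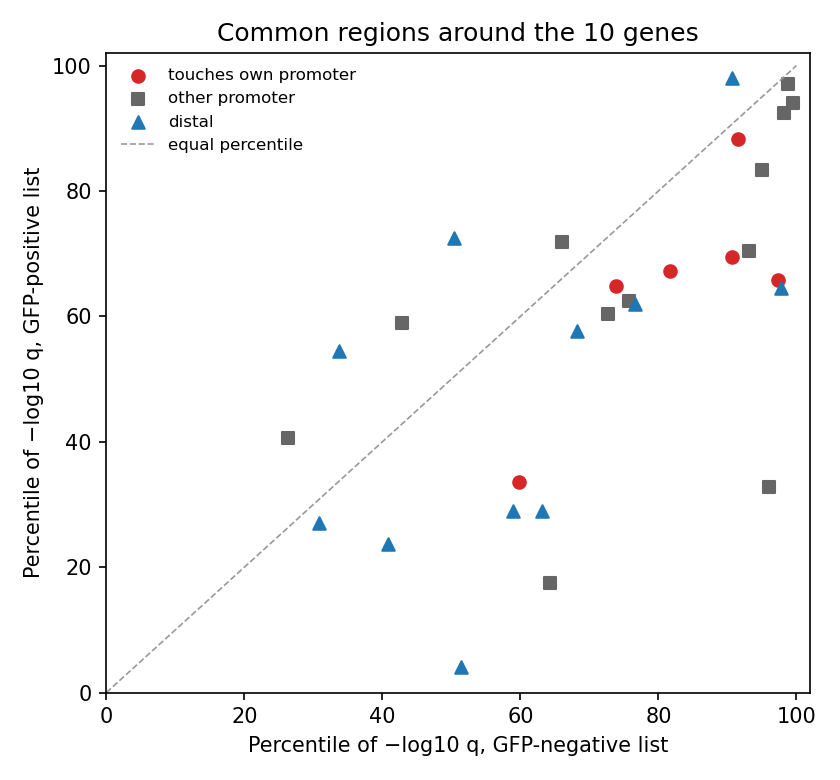
Percentile of −log10 q within the GFP-negative list (x axis) and within the GFP-positive list (y axis) for the 29 common regions; the dashed line marks equal percentiles. Below the line lie 23 regions, among them the 6 common regions that touch the own promoter of a gene (red), and the multi-copy region near *Zic2* lies above it at 90.7 and 97.9.

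In sequence, the regions followed their place more than their class. In 200 bp around the summits the median CpG number was 17 in common promoter regions and 10.5 in GFP-negative-specific promoter regions, beside 13 and 4 over all regions. At distal sites it was 5 in common and 4 in GFP-negative-specific regions, beside 7 and 3. GFP-negative-specific promoter regions around the 10 genes thus had more CpGs than such regions elsewhere. Soft-masked bases, which mark repeats and low-complexity sequence, made up a mean of 14.7% of the 118 windows, beside 26.6% over all regions. In the distal common regions they made up 23.4% beside 43.9%.

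Short motifs of factors that act in these cells were counted on both strands of the same windows. The octamer ATTTGCAT of POU factors was in 0 of 118 windows, beside 1.78% of all regions, and the TCF/LEF motif ATCAAAG was in 2 (1.69%) beside 2.22%. The bicoid-type motif TAATCC of OTX2 and GSC was in 5 (4.24%) beside 6.09%, and the T-box motif AGGTGTGA in 1 (0.847%) beside 0.924%. The FOXH1 motif AATCCACA was in 0 beside 0.544%, and the SOX motif CCTTTGTT in 2 (1.69%) beside 1.84%. The GC box GGGGCGGGG was in 8 (6.78%) beside 4.47%. Counts this low cannot show whether the shares differ from those of all regions, and no test was made.

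Genes of the same pathways were described for comparison. Of 13 Nodal pathway genes (the co-receptor *Tdgf1*, the antagonists *Lefty1*, *Lefty2* and *Cer1*, activin receptors, SMADs, *Foxh1* and the proprotein convertases *Furin* and *Pcsk6*), 10 promoters were occupied in both lists, 2 (*Lefty2* and *Pcsk6*) in the GFP-negative list only and 1 (*Cer1*) in neither. Of 14 Wnt and Fgf genes, 13 were occupied in both lists and 1 (*Wnt3a*) in the GFP-positive list only. Of 13 other formative genes 10 were occupied in both lists, including *Dnmt3a* and *Dnmt3b*, 1 (*Foxd3*) in the GFP-negative list only and 2 in neither. Of 13 other streak and mesendoderm genes 6 were occupied in both lists, 3 (*Mesp2*, *Nkx1-2* and *Sp5*) in the GFP-negative list only and 4 in neither. Of all protein-coding genes, 57.0% were occupied in both lists and 10.8% in the GFP-negative list only. A further 2.32% were occupied in the GFP-positive list only and 29.9% in neither.

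The share of GFP-negative-specific regions in these lists was 55.0% (48.2 to 61.5) for the Nodal pathway, 63.9% (57.8 to 69.6) for Wnt and Fgf, 57.5% (50.5 to 64.3) for other formative genes and 42.4% (34.6 to 50.5) for other streak genes. For 13 naive pluripotency genes the share was 62.7% (56.3 to 68.6), with 11 promoters occupied in both lists. For 10 primitive endoderm genes it was 50% (38.7 to 61.3), with 5. The lists are not fully separate: *Zic5*, an other formative gene, lies within 50 kb of *Zic2*, so some regions count for both. The 10 genes, at 71.2%, were above each of these lists. Their interval did not meet those of the Nodal pathway, the other streak genes and the primitive endoderm genes. This is no test between lists, since the intervals count regions of the same gene as independent and leave out the spread between genes. Among the 10 genes the share ran from 40% at *Mixl1* to 100% at *Otx2*. Naive pluripotency genes also lay above the 47.7% around all genes, and their interval met that of the 10 genes. GFP-negative peaks per 100 kb of summed windows were 9.57 for the 10 genes. They were 10.8 (Nodal pathway), 11.9 (Wnt and Fgf), 10.7 (other formative), 8.88 (other streak), 12.9 (naive) and 4.02 (primitive endoderm). GFP-positive peaks were 3.19 per 100 kb for the 10 genes, and 5.17, 4.78, 5.04, 5.95, 5.36 and 2.29 for these lists in the same order.

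**Figure D5:**
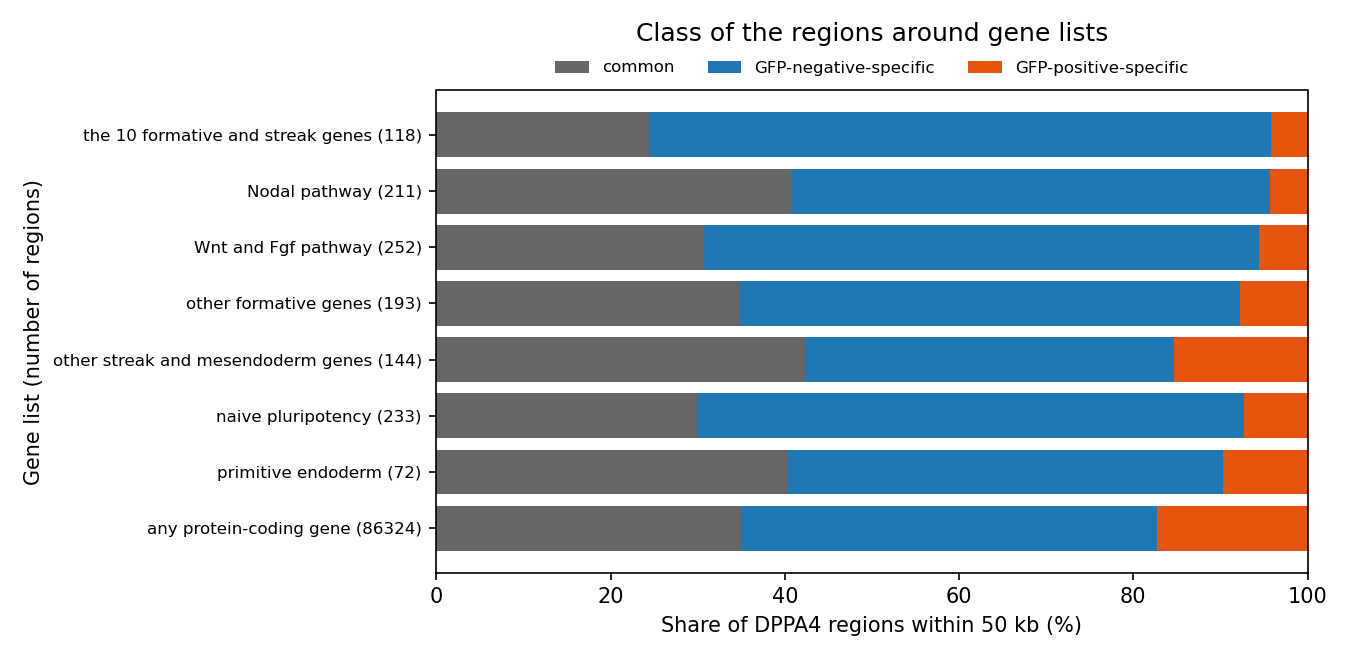
Share of DPPA4 regions within 50 kb (x axis, percent) in each class (colours), for the 10 genes, 6 other gene lists and all protein-coding genes (y axis, number of regions in brackets). The blue part is 71.2% for the 10 genes, 62.7% for naive pluripotency genes and 47.7% around any protein-coding gene.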

How the data were processed

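DPPA4 CUT&RUN was profiled in duplicate in GFP-negative and GFP-positive EHMT2-dTAG MERVL-GFP ESCs after 72 h of dTAG, and sample titles gave the groups. As the methods of the study state, reads were trimmed with bbduk and aligned with STAR, keeping multimapping reads at 1 randomly chosen best place. Duplicates and blacklisted high-signal regions were removed, and peaks were called on whole fragments with MACS2. The submitters' processing notes name MACS2 2.2.6, Picard 2.26.0, SAMtools 1.14, STAR 2.7.10 and bedtools 2.30.0. Whether IgG served as control in peak calling is not given in the sources used here. Random placement of multimapping reads makes peaks in multi-copy sequence uncertain as to copy.

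The deposited fold enrichment is the authors' ratio of summit pileup to local background. The deposited −log10 p and −log10 q are the authors' significance of each summit, with a lowest −log10 q of 1.30. The deposited score equalled 10 times the −log10 p, cut to a whole number, in every peak of both lists and was not used further. The deposited lists held 85177 and 54647 peaks, of which 1575 and 5 lay on sequences other than the mouse chromosomes and were left out. No per-sample column went unused (0).

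Genes and start sites were taken from GENCODE vM21. No region reached beyond the end of any of the 21 chromosomes of GRCm38.p6. The summit of a common region was the midpoint of the best summits of both lists. Positions are 1-based mm10. Copy number was the median genome-wide count of 31-mers in 200 bp around a summit. Calculations used Python 3.11.15, numpy 2.4.6, pandas 2.3.3 and matplotlib 3.10.9, and the merging of peaks was tested on simulated data. All 10 genes are named, each with its own-promoter regions and the strongest region of each class by −log10 q, and from other lists up to 4 examples. The genes, lists and motifs were chosen with earlier results of these data known. Other windows, thresholds, list lengths, overlap rules and promoter definitions were tried. No test between lists was made, since each is pooled.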

Additional observations from a re-analysis of the deposited data

How the results depend on the processing

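No paired analysis was possible because each list pools its 2 libraries, and for the same reason no library could be left out. Of 130 recalculations of the pooled values, 105 moved by less than their limit and 25 by more; of 210 recalculations of the counts of single genes, 119 and 91. Leaving out any 1 gene moved neither the 2 peak counts nor the 3 class shares beyond their limits; promoter counts, promoter shares and fold enrichments were not recalculated this way. With windows of 20 and 100 kb, GFP-negative peaks numbered 64 and 195 and GFP-positive peaks 19 and 81. At a −log10 q of at least 5 they numbered 53 and 15. The promoter share was then 85.7% of common and 33.3% of GFP-negative-specific regions, and the median fold enrichment of the latter was 5.68. For common regions the median fold enrichment in the GFP-negative list was then 13.7 instead of 6.51, although this counted as within its limit.

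With lists of equal length the GFP-negative-specific share was 59.5%, beside 30.5% of all regions, and it was the majority class in 5 of 10 genes instead of 8, beside 13.8% instead of 31.6% of protein-coding genes. With the 10000 strongest peaks of each list, 14 GFP-negative and 5 GFP-positive peaks were left. Shares were then 57.1% GFP-negative-specific (8 of 14 regions), 42.9% common and 0% GFP-positive-specific. Over all regions they were 24.4%, 50.9% and 24.6%. Promoters were occupied in both lists at 0 genes (20.6% of all protein-coding genes) and in the GFP-negative list only at 2 (6.42%). Promoter shares were 83.3% of common and 50% of GFP-negative-specific regions. Median fold enrichment was 19.98 (common) and 16.9 (GFP-negative-specific) in the GFP-negative list and 11.8 (common) in the GFP-positive list.

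With summits within 200 bp as the rule for common, GFP-positive-specific regions made up 12.3%, beside 24.6% of all regions. The share of GFP-negative peaks in common regions was 15.0% among distal peaks and 60.9% at a −log10 q of at least 10, both chosen after seeing the data. In the 5 settings that changed the lists or the overlap rule, the GFP-negative-specific share around the 10 genes was above that of all regions. Fewer peaks by construction set the smaller counts; the cause of the other shifts was not tested. The unknown depth limits every statement on absence from the shorter list.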
